A study of Mus musculus with 2 samples.

Results

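The genes described here are 10 islet antigens targeted in autoimmune (type 1) diabetes, Ins1, Ins2, Gad1, Gad2, Ptprn, Ptprn2, Slc30a8, Iapp, Chga and G6pc2. They are a fixed list of known autoantigens, chosen with earlier results of these data known. All 10 were found among the 23411 genes listed in both deposited tables, and of each gene the transcript with the most reads was taken. Their transcripts were counted in mTEC, the epithelial cells of the thymic medulla, which were sorted from B6 mice by surface MHC class II into an MHC-II high and an MHC-II low fraction. Each fraction came from the same pool of 3 mice and gave 1 poly-A library, so there are 2 libraries in all. No transgene, deletion or treatment is named for either group, and age and sex are not stated in the labels. With 1 library per group no difference below has a replicate check, and intervals cover counting error only.

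In type 1 diabetes, T cells destroy the insulin-producing beta cells of the pancreatic islets, and antibodies and T cells recognise beta cell proteins, many of them from the secretory granule. Medullary thymic epithelium transcribes many genes of peripheral tissues and displays their peptides to developing T cells, which removes reactive cells or turns them into regulatory cells. The transcription regulator Aire drives part of this expression in mature, MHC-II high mTEC, and proinsulin is a well known islet example.

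The libraries held 138368535 reads on these genes in the MHC-II high and 56077479 in the MHC-II low fraction. Levels below are CPM, reads on a gene scaled to a TMM-scaled library total, where 3 reads amount to 0.0196 CPM in MHC-II high and 0.0591 CPM in MHC-II low mTEC. A gene is called higher or lower when the whole 95% Clopper-Pearson interval of its MHC-II high over MHC-II low ratio lies beyond 2-fold, where its CPM averaged over both libraries is 1 or more. As a check of the sort, Aire was at 571 CPM in MHC-II high and 21.0 CPM in MHC-II low mTEC, Cd74 at 9289 and 4453 CPM, H2-Aa at 4485 and 2240 CPM, H2-Eb1 at 3197 and 1947 CPM, and H2-Ab1 at 4128 and 3266 CPM. Of 10 listed genes of mature mTEC, 7 were called higher and 0 lower. The genes not called were H2-Aa, H2-Eb1 and H2-Ab1, which encode chains of MHC class II, the protein used for the sort. Each had a higher level in MHC-II high mTEC, but its interval did not lie wholly beyond 2-fold. Genes of other cells also differed. Summed levels were 72.0 against 488 CPM for 8 endothelial genes, 190 against 1088 CPM for 7 fibroblast genes, 428 against 101 CPM for 9 dendritic cell and macrophage genes, 51.2 against 63.7 CPM for 10 lymphocyte genes, 439 against 165 CPM for 10 neural and glial genes and 69.3 against 25.0 CPM for 10 pancreatic acinar genes, each MHC-II high first. By call, of genes past the minimum, 0 and 8 of 8 endothelial, 0 and 5 of 7 fibroblast and 5 and 0 of 7 myeloid genes were higher and lower. So were 3 and 1 of 9 lymphocyte, 2 and 1 of 10 neural and 4 and 0 of 9 acinar genes. Over all genes compared, 14.5% were higher and 10.9% lower. Of the genes called higher, 2 acinar and 1 lymphocyte gene passed the minimum through MHC-II high mTEC alone. Likewise 1 lower endothelial gene passed it through MHC-II low mTEC alone. No gene of these lists was at 0 reads in either library. In such bulk samples, fewer cells of a type and less RNA per cell cannot be told apart.

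All 10 islet antigens had reads in both libraries, but at levels that spanned more than 2 orders of magnitude. MHC-II high mTEC had more Ins2 and Gad1 and less Ptprn2 and Chga, and the other 4 of the 8 antigens past the expression minimum were called neither way. Slc30a8 and G6pc2 lay below the minimum. Over all 17438 genes compared, 14.5% were called higher and 10.9% lower, so calls in both directions are common in this comparison and 2 of 8 in each direction is no more than a description. The median log2 ratio of these 8 antigens was 0.25, against −0.01 over all genes compared.

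The balance of calls depends on the scaling. Of all called genes, 57.0% were higher with TMM-scaled totals, 72.9% with unscaled totals, 93.9% with the totals that underlie the deposited RPKM values and 42.6% without an expression minimum. Unscaled totals moved the median log2 ratio of all genes to 0.28 and the RPKM totals moved it to 0.997. A change of totals shifts the log2 ratio of every gene by the same amount. The antigens thus moved up alike, and the order among them could not change.

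**Figure D1:**
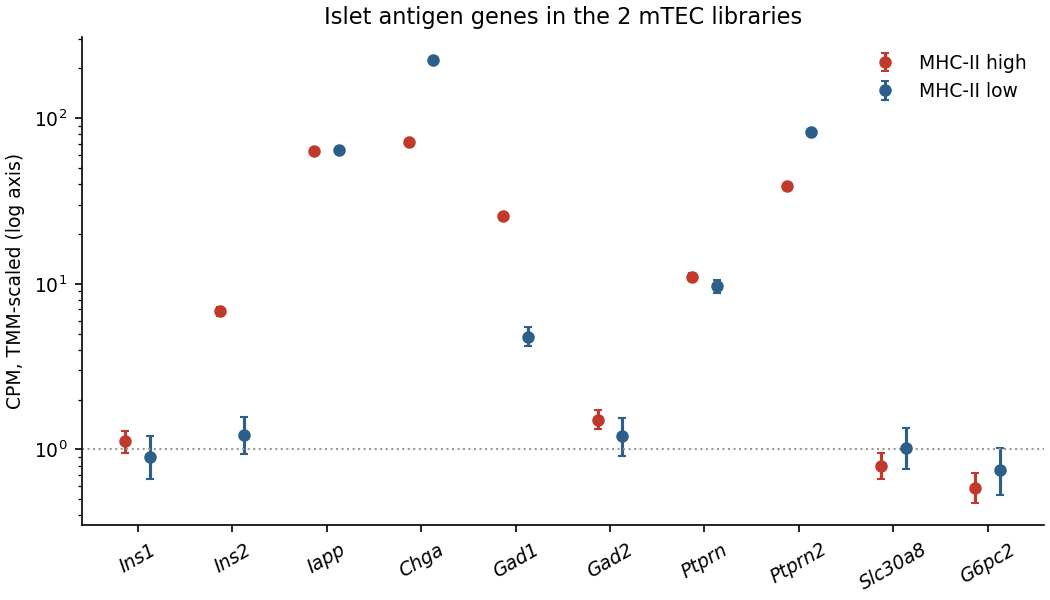
Level of each islet antigen gene in CPM (log axis) in the MHC-II high (red, left of each pair) and MHC-II low (blue, right) library, with the exact 95% Poisson interval of the reads; the dotted line marks 1 CPM. Levels run from 0.589 CPM for G6pc2 in the MHC-II high to 223 CPM for Chga in MHC-II low mTEC.

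The hormones come first. Insulin is made in mice from a pair of genes, Ins1 and Ins2, of which Ins2 is the ancestral gene and the one known for expression in the thymus. Ins2 (NM_001185084) had 1041 reads in MHC-II high and 62 reads in MHC-II low mTEC, or 6.81 CPM (95% Poisson interval 6.40 to 7.24) and 1.22 CPM (0.936 to 1.57). MHC-II high mTEC were thus the high ones, at 5.58 times the level of MHC-II low mTEC (interval 4.31 to 7.33). The other Ins2 transcripts listed each held 1034 and 62 reads, on 451 and 463 bases against 565 for the one used, which leaves the ratio between libraries nearly as it was and raises levels per kilobase. Near it on the chromosome, the catecholamine enzyme gene Th was 12.6-fold higher (8.98 to 18.1), with 1323 and 35 reads and past the minimum through MHC-II high mTEC alone, and the antisense gene Igf2os had 248 and 40 reads and a ratio of 2.06 (1.47 to 2.95). Summed levels of pancreatic acinar genes (69.3 and 25.0 CPM) and of myeloid genes (428 and 101 CPM) were also higher in MHC-II high mTEC, and their part in the Ins2 result was not tested.

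Ins1 (NM_008386) was scarce in both libraries and passed the minimum through MHC-II high mTEC alone. It had 171 reads (1.12 CPM, interval 0.957 to 1.30) in MHC-II high and 46 reads (0.906 CPM, 0.663 to 1.21) in MHC-II low mTEC. Those intervals overlap, and the ratio of 1.23 had an interval of 0.887 to 1.75. Since 1 gene of a pair was called higher and the other was not, the pair was also compared within each library, where the scaling cancels. Per kilobase, Ins2 had 11.0 times the reads of Ins1 in MHC-II high mTEC (9.32 to 13.0) and 2.43 times in MHC-II low mTEC (1.63 to 3.64). The 2 intervals do not overlap, so the share of Ins2 among insulin transcripts was larger in MHC-II high mTEC beyond counting error. With the shorter Ins2 transcripts, a choice added after seeing the data, the values were 13.6 and 13.3 in MHC-II high and 3.04 and 2.96 in MHC-II low mTEC, and the intervals of the libraries did not overlap either. The 2 transcripts share an identical run of 56 bases in GENCODE vM21. With at most 3 mismatches, 17 of 963 windows of 100 bases on Ins1 and 17 of 453 on Ins2 match the other gene. Some reads could therefore be placed on either gene, and the counts of the pair are uncertain to that extent. As Ins2 had more reads (1041 against 171 in MHC-II high mTEC), this weighs more on the Ins1 count and so on the pair ratios.

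Iapp (NM_010491) encodes islet amyloid polypeptide, a hormone stored and released with insulin. It was among the more abundant antigens, with 9617 reads (62.9 CPM) in MHC-II high and 3246 reads (63.9 CPM) in MHC-II low mTEC. Its ratio was 0.98 with an interval of 0.946 to 1.02, and no other antigen had so narrow an interval around equality. In the deposited RPKM values, which use other library totals, Iapp stood at 64.7 and 32.8, so the equality holds with TMM or median of ratios scaling and not with these totals. In the reference annotation Iapp lies within the span of Slco1a5 on the other strand, but their exons share 0 bases. Slco1a5 had 4834 and 1237 reads, a ratio of 1.30 (1.22 to 1.38).

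**Figure D2:**
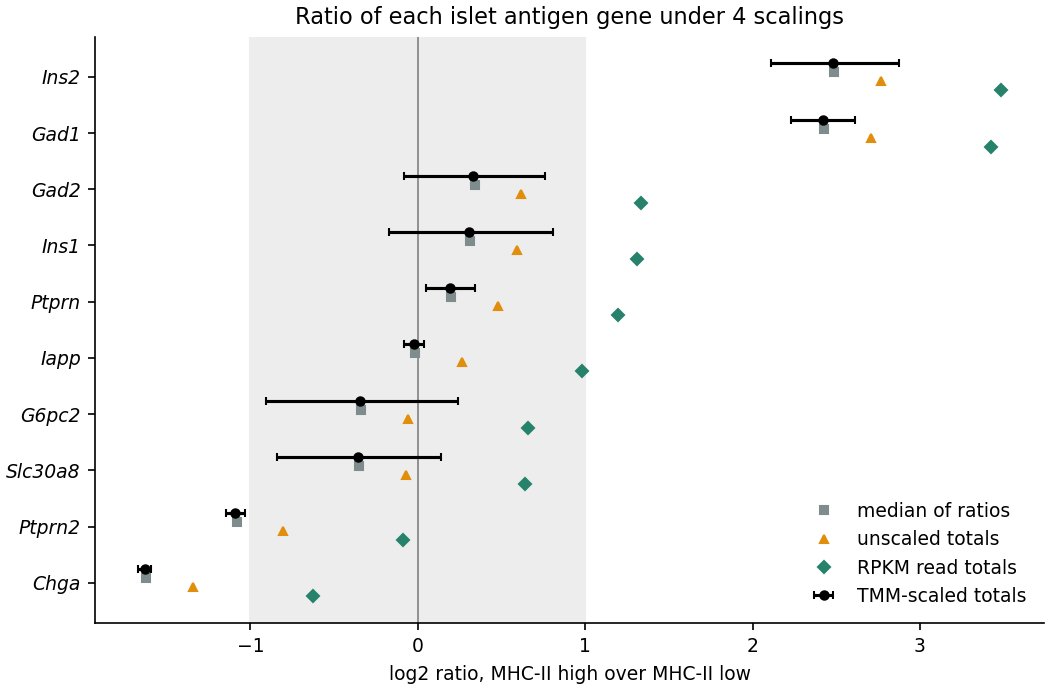
Log2 ratio of MHC-II high over MHC-II low for each islet antigen gene with 4 ways of scaling the libraries; bars are exact 95% counting intervals of the TMM-scaled ratio and the grey band marks ratios within 2-fold. Ins2 and Gad1 lie above the band with each of the 4 scalings, and Chga lies below it except with the RPKM read totals.

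Chga (NM_007693) encodes chromogranin A, a granule protein whose fragments are recognised by diabetogenic T cells in the NOD mouse. It was the antigen with the most reads, with 11029 in MHC-II high and 11347 in MHC-II low mTEC. In CPM these are 72.2 (interval 70.8 to 73.5) and 223 (219 to 228), and MHC-II low mTEC stood 3.10-fold higher (3.02 to 3.18), a log2 ratio of −1.63. Of its neighbours, Golga5 had a log2 ratio of 0.11 and the inositol kinase gene Itpk1 one of −1.06, which was not called. Within each library, Iapp had 2.36 times the reads of Chga per kilobase in MHC-II high mTEC (2.30 to 2.43) and 0.775 times in MHC-II low mTEC (0.745 to 0.806), a pair chosen after its values were seen as the most abundant antigens. With RPKM totals the log2 ratio was −0.63 and Chga was not called. Chga is also on the list of endocrine and tuft-like epithelium. Of the other 10 genes on it, 4 were called lower, which were Chgb and the tuft cell genes Avil, Trpm5 and Dclk1, and 1 was higher, the endocrine factor gene Insm1. The endocrine genes Neurod1, Syp and Foxa2 were not called, and neither were the tuft cell gene Pou2f3 and Spib. With RPKM totals Trpm5 was not called either (log2 ratio −0.80). Summed levels of the list, which include Chga itself at 72.2 and 223 CPM, were 1244 and 2160 CPM. With RPKM totals the sums were 889 and 771 CPM, which turns the direction. The part of those cells in the Chga result was not tested.

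Glutamate decarboxylase makes the transmitter GABA and is encoded by Gad1 and Gad2. Gad2 encodes the form that human autoantibodies mainly target, and Gad1 is the form known from mouse islets and thymus. Gad1 (NM_008077) had 3929 reads (25.7 CPM, interval 24.9 to 26.5) in MHC-II high and 244 reads (4.81 CPM, 4.22 to 5.45) in MHC-II low mTEC. MHC-II high mTEC stood 5.35-fold higher (4.70 to 6.11). Gad2 (NM_008078) had 231 reads (1.51 CPM, 1.32 to 1.72) and 61 reads (1.20 CPM, 0.919 to 1.54), intervals that overlap, and a ratio of 1.26 (0.945 to 1.70). Per kilobase, Gad1 had 29.6 times the reads of Gad2 in MHC-II high mTEC (25.9 to 34.0) and 6.96 times in MHC-II low mTEC (5.24 to 9.38). The 2 transcripts share no identical run longer than 17 bases, and 0 windows of 100 bases match with at most 3 mismatches, so these counts can be kept apart. The genes on either side of Gad1 were called neither way, with log2 ratios of −0.57 for Erich2 and −0.46 for Gorasp2. Neurons also express Gad1, and neural and glial genes summed to 439 against 165 CPM, of which Syt1, a synaptic vesicle gene, made up 393 and 118 CPM. Their part in the Gad1 result was not tested.

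**Figure D3:**
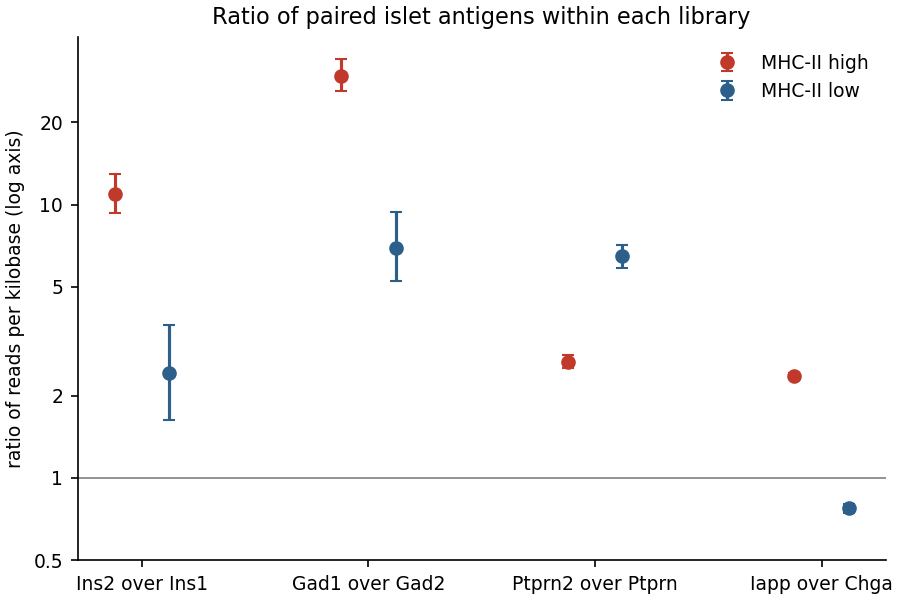
Reads per kilobase of 1 antigen over another within the same library (log axis), MHC-II high in red and MHC-II low in blue, with exact 95% counting intervals. Gad1 over Gad2 is the most unequal pair, at 29.6 in MHC-II high and 6.96 in MHC-II low mTEC, and the intervals of the libraries do not overlap for any of the 4 pairs.

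Since Gad1 and Gad2 encode related enzymes and differed in level, their promoters are set side by side, from RefSeq on GRCm38.p6, 250 bases before to 50 after the annotated start, plus strand, 5′ to 3′. Gad1 is at chr2:70561879-70562178 and Gad2 at chr2:22622077-22622376. Capitals mark matches on either strand to TATAAA (the core box bound by the TBP protein, or TBP box), GGGCGG (GC box), TGACG (core of the cAMP response element) and TAAT (homeodomain core), some of which overlap.
Gad1: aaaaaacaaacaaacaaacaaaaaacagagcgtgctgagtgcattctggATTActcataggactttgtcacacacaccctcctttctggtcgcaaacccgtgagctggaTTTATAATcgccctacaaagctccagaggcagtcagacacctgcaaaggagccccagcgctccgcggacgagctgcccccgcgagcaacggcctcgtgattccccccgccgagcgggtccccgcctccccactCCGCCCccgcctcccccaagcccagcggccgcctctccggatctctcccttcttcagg
Gad2: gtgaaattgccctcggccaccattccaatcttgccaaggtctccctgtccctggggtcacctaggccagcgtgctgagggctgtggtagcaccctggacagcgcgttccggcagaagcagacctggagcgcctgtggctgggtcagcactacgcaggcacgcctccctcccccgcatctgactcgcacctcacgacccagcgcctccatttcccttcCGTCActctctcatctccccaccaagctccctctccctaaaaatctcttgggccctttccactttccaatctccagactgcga
The Gad1 window held 1 TBP box, 1 GC box and 2 homeodomain cores, 1 of which overlapped the TBP box, and the Gad2 window held 1 cAMP response core. Of 32851 promoter windows in the table, 13.6% held a TBP box, 35.7% a GC box, 20.8% a cAMP response core and 58.0% a homeodomain core in these letters. Both windows were above the median of 7 CpG dinucleotides, with 21 in Gad1 and 14 in Gad2. These are matches of letters, and no binding was measured.

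Ptprn (NM_008985) and Ptprn2 (NM_011215) encode IA-2 and its relative phogrin, receptor-type tyrosine phosphatase proteins of the granule membrane. Ptprn2 had 5953 reads in MHC-II high and 4208 reads in MHC-II low mTEC, or 39.0 CPM (38.0 to 40.0) and 82.9 CPM (80.4 to 85.4). MHC-II low mTEC stood 2.13-fold higher (2.05 to 2.21). The log2 ratio was −1.09, against −0.80 with unscaled totals and −0.09 with RPKM totals, and neither of those was called. Ptprn had 1689 reads (11.1 CPM) and 491 reads (9.67 CPM), a ratio of 1.14 (1.03 to 1.27), and was called higher with RPKM totals, where its log2 ratio was 1.19. Per kilobase, Ptprn2 had 2.66 times the reads of Ptprn in MHC-II high mTEC (2.52 to 2.81) and 6.46 times in MHC-II low mTEC (5.88 to 7.11). Endothelial (72.0 and 488 CPM) and fibroblast genes (190 and 1088 CPM) were lower in sum alongside Ptprn2. So were endocrine and tuft-like genes (1244 and 2160 CPM, Chga included), but not with RPKM totals. The part of these genes was not tested. Ptprn shares 189 exon bases with an antisense gene model in GENCODE vM21, and as the libraries keep no strand its count may include reads of that RNA.

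Chga and Ptprn2 were the antigens called lower, and their promoter windows are given for that reason, with the same marking, on GRCm38.p6, plus strand, at chr12:102554691-102554990 for Chga and chr12:116485470-116485769 for Ptprn2.
Chga: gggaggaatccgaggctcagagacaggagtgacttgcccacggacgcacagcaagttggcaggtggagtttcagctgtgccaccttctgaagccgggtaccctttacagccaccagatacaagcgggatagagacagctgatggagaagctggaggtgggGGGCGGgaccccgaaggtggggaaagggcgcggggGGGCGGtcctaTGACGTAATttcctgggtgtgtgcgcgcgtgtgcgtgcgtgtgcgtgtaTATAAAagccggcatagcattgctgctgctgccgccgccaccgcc
Ptprn2: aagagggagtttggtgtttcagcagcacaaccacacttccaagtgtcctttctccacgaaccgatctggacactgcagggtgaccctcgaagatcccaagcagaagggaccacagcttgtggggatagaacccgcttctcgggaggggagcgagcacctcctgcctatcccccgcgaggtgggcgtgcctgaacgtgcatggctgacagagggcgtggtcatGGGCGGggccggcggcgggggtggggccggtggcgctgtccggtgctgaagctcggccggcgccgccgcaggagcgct
Chga held 2 GC boxes, 1 TBP box and 1 cAMP response core directly followed by 1 homeodomain core, and Ptprn2 held 1 GC box. They had 21 and 24 CpG dinucleotides. Gad1, called higher, also had 21, with a GC box and a TBP box. Among the other antigens, Gad2 had 14, Iapp 4 and Ins1 0. Ptprn and G6pc2 each had 2 windows, with 14 and 15 in Ptprn and 6 and 5 in G6pc2. The windows of Iapp and Ins1 held neither a GC box nor a TBP box. The promoter table matched 8 of the 10 antigens. Sequence features were counted in the windows only, and no relation to the ratios was tested.

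Slc30a8 (NM_172816) encodes ZnT8, the zinc transporter that loads the insulin granule, and G6pc2 (NM_021331) encodes IGRP, an islet glucose-6-phosphatase subunit that is a main target of CD8+ T cells in NOD mice. Both had few reads in both libraries. Slc30a8 had 122 reads (0.798 CPM, 0.663 to 0.953) in MHC-II high and 52 reads (1.02 CPM, 0.765 to 1.34) in MHC-II low mTEC, with a ratio of 0.779 (0.559 to 1.10). G6pc2 had 90 reads (0.589 CPM, 0.474 to 0.724) and 38 reads (0.748 CPM, 0.530 to 1.03), with a ratio of 0.787 (0.533 to 1.18). For both the intervals of the levels overlap, and no difference was detectable at this depth. With RPKM totals both log2 ratios turned positive, to 0.64 for Slc30a8 and 0.66 for G6pc2. Around G6pc2, by contrast, the bile salt transporter gene Abcb11 was 2.60-fold higher (2.03 to 3.37) and the kinetochore gene Spc25 4.39-fold higher (3.80 to 5.10) in MHC-II high mTEC.

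Levels can be ordered per length, as RPKM recomputed with the TMM-scaled totals. In the MHC-II high library Iapp came first at 90.5, followed by Chga (38.3), Ins2 (12.1), Ptprn2 (8.31), Gad1 (7.96), Ptprn (3.13), Ins1 (1.10), Slc30a8 (0.419), G6pc2 (0.293) and Gad2 (0.269). In that order the intervals of Ptprn2 and Gad1, of Slc30a8 and G6pc2 and of G6pc2 and Gad2 overlap, and those of the other neighbours do not. In the MHC-II low library Chga came first at 119, followed by Iapp (92.0), Ptprn2 (17.7), Ptprn (2.74), Ins2 (2.16), Gad1 (1.49), Ins1 (0.890), Slc30a8 (0.537), G6pc2 (0.372) and Gad2 (0.214). Here the intervals overlap from Ptprn to Ins2, from Ins2 to Gad1 and between each pair of neighbours from Ins1 down. Among all 23411 genes, Iapp lay at the 97.2 percentile of this level in MHC-II high and the 96.9 percentile in MHC-II low mTEC, and Gad2 at the 20.2 and 12.0 percentiles. Ins2 lay at the 73.2 percentile in MHC-II high and the 45.6 percentile in MHC-II low mTEC, and Gad1 at the 65.0 and 41.1 percentiles.

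Added up, the 10 antigens had 222 CPM in MHC-II high and 390 CPM in MHC-II low mTEC. With RPKM totals the sums were 158 and 139 CPM, so the direction of the sum depends on the scaling. Chga held 32.6% of those reads in MHC-II high and 57.3% in MHC-II low mTEC, so the sum mainly follows Chga. Gad1 held 11.6% and 1.23%, and Ins2 3.07% and 0.313%.

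**Figure D4:**
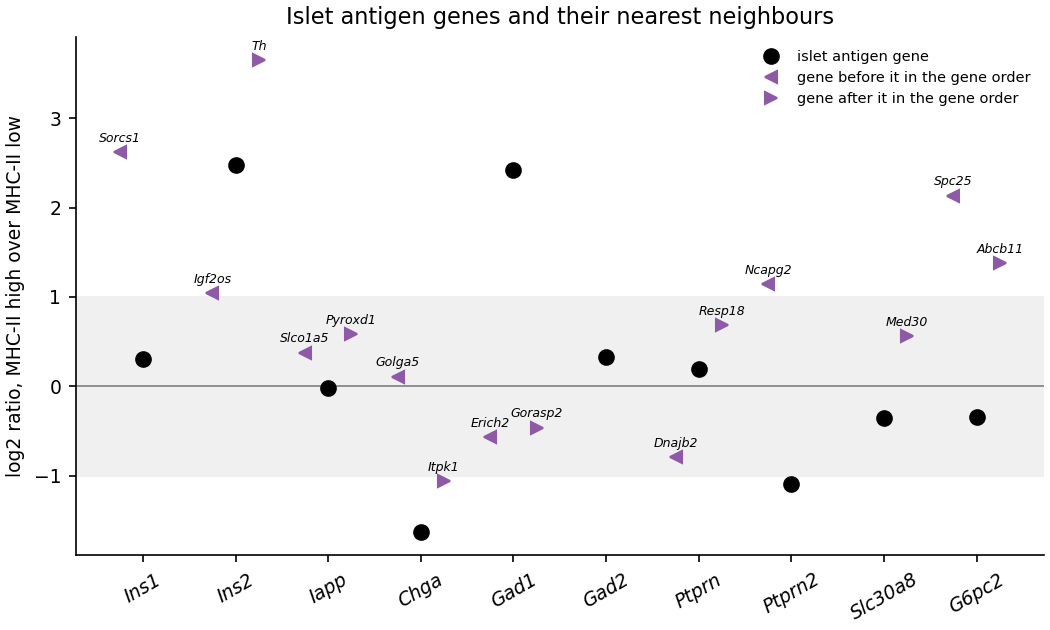
Log2 ratio of MHC-II high over MHC-II low for each islet antigen gene (black) and for the genes just before and after it in the reference gene order (purple triangles, those past the expression minimum); the grey band marks ratios within 2-fold. Th beside Ins2 is at 3.65 and both neighbours of Gad1 are below 0.

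Over all antigens, 15 of 20 neighbouring genes passed the expression minimum (Th and Igf2os through MHC-II high mTEC alone). Of these 15, 5 were higher and 0 lower, beside 14.5% and 10.9% over all genes compared. Their median log2 ratio was 0.58. The higher ones were Sorcs1 beside Ins1 (2.62), Th beside Ins2 (3.65), Ncapg2 beside Ptprn2 (1.14) and both neighbours of G6pc2. Sorcs1, Ncapg2 and the neighbours of G6pc2 were thus higher beside antigens that were not. Of these antigens, Ptprn2 was called lower and G6pc2 lay below the minimum.

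The other genes of islet biology, from lists drawn up with earlier results of these data known, give the setting of these antigens. Each count of calls below stands beside 14.5% higher and 10.9% lower over all genes compared. Further reported islet autoantigens split, with 2 of 11 past the minimum higher and 4 lower and a median log2 ratio of −0.58, which was −0.29 with unscaled totals and turned to 0.42 with RPKM totals. Within this list the neurosecretory protein gene Vgf had the highest ratio, at 49.6 against 3.09 CPM (ratio limits 13.7 and 18.9), and the tetraspanin gene Tspan7 the lowest, at 3.85 against 46.1 CPM. The mitochondrial chaperone gene Hspd1 (396 and 205 CPM) and the kinase gene Dmpk (192 and 95.3 CPM) were not called. The other called genes, named after their values were seen, were Prph, higher, and Sox13, Scg3 and Cpe, lower. With RPKM totals Tspan7 stayed lower (log2 ratio −2.58), and Sox13, Scg3 and Cpe would not be called.

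Genes of the secretory granule and of prohormone processing split too, with 5 of 16 higher and 4 lower, a median of 0.06 and Vgf again at the top. The median was 0.35 with unscaled totals and 0.94 with RPKM totals. Besides Vgf, the exocytosis gene Cadps was at 282 against 48.0 CPM and Cltrn, which encodes a beta cell membrane protein, at 2.21 against 0.217 CPM, both higher. Cltrn passed the minimum only through the MHC-II high library. The carboxypeptidase gene Cpd, at 256 and 171 CPM, was not called. The 4 lower ones, named after their values were seen, were Chgb (20.2 and 81.2 CPM), Scg2 (21.7 and 88.4 CPM), Cpe (19.6 and 62.9 CPM) and Scg3 (2.10 and 5.55 CPM), which encode granins or the enzyme that trims prohormones. With RPKM totals none of these 4 would lie wholly beyond 2-fold. Cpe and Scg3 are also among the reported autoantigens above. The prohormone convertase genes Pcsk1 and Pcsk2, also named afterwards, had log2 ratios of −0.14 and 0.18. The lower level of Chgb, Scg2, Cpe and Scg3 was found where endothelial and fibroblast genes were lower as well, and the part of other cells was not tested.

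**Figure D5:**
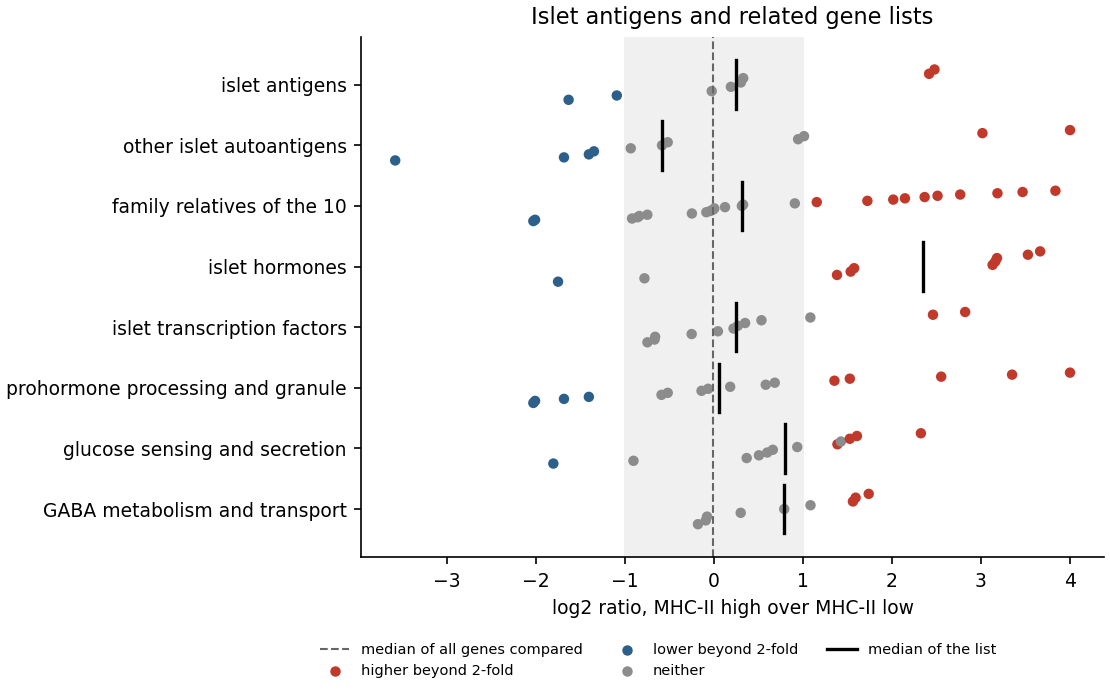
Log2 ratio of MHC-II high over MHC-II low for every gene past the expression minimum in the islet antigen list and 7 related lists, coloured by call, with the list median (black bar) and the median of all genes compared (dashed). Islet hormones lie furthest to the right with a median of 2.35, while the islet antigens have a median of 0.25 and calls on both sides.

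Of 10 islet and gut hormone genes, 8 were called higher and 1 lower (median 2.35), beside 14.5% and 10.9% over all genes compared. Insulin and Iapp are counted with the antigens. The pancreatic polypeptide gene Ppy had 1529 against 40 reads (ratio limits 9.28 and 17.8) and neurotensin, Nts, 74.4 against 6.44 CPM (10.3 and 12.9). Gcg, the glucagon gene, was at 18.8 and 32.3 CPM and was not called. The gene called lower was Ghrl, for ghrelin, at 3.02 and 10.2 CPM, named after its value was seen. With RPKM totals Ghrl would not be called. Ppy passed the minimum only through the MHC-II high library.

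The transcription factors that give islet cells their identity showed little of this. Of 18, 6 lay below the minimum. Of the other 12, 2 were called higher and 0 lower (median 0.25). Among the higher ones was Insm1, at 245 against 34.6 CPM. Pdx1, the activator of insulin and Iapp transcription in beta cells, was picked afterwards and had 103 and 41 reads (0.674 and 0.808 CPM). Mafa, another activator of the insulin genes, also picked afterwards, was at 6.35 and 6.15 CPM.

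Among genes of glucose sensing and secretion, 4 of 12 were called higher and 1 lower (median 0.80). Of these 4, Gcgr and Gipr (1.68 and 0.552 CPM), named after its value was seen, passed the minimum through MHC-II high mTEC alone. The glucagon receptor gene Gcgr was at 3.76 against 0.748 CPM, higher, and Trpm5, a cation channel gene also typical of tuft cells, at 117 against 407 CPM, lower. With RPKM totals Trpm5 had a log2 ratio of −0.80 and was not called. Ero1b, an oxidase for proinsulin folding in the endoplasmic reticulum, was at 368 and 232 CPM and was not called. Of genes that handle GABA, 3 of 9 were called higher and 0 lower (median 0.79). Aldh5a1, which breaks GABA down, was at 18.1 and 19.3 CPM, and the receptor gene Gabbr1 at 21.8 and 24.7 CPM.

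Of 25 relatives of the antigens, 10 were called higher, 1 of them past the minimum through MHC-II high mTEC alone, and 2 lower. The lower ones were Chgb and Scg2, which are also counted among the granule genes above. Calcb and Calca, calcitonin family genes related to Iapp, were at 372 against 26.0 CPM and 71.8 against 6.48 CPM, both higher, while the related Adm was at 243 and 257 CPM. Igf1 and Igf2, insulin-like growth factor genes picked afterwards, were at 174 against 25.5 CPM and 48.2 against 9.34 CPM, both higher. The liver glucose-6-phosphatase gene G6pc, the relative of G6pc2, was at 7.43 against 1.30 CPM, higher, and was also picked afterwards. The median of these relatives was 0.32.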

How the data were processed

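Poly-A RNA of MHC-II high and MHC-II low mTEC, both from 1 pool of 3 mice, was sequenced as 1 library each. Per the series' design text, about 100 ng of RNA, a kit that keeps no strand and 15 PCR cycles were used, with 2 ends of 100 bases read. The submitters' processing notes name mm9, CASAVA, Bowtie 1.0.0 and bedtools, with no settings. The authors deposited, per the file headers, a read count, a length and an RPKM value per RefSeq transcript. The deposited counts were whole numbers, and the deposited RPKM was the count divided by length and by 213854095 (MHC-II high) or 142330178 reads (MHC-II low).

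Lines that were stray read records (18 and 36) were left out, copies of a transcript (840 lines in the MHC-II high table) were summed, and accessions in 1 table only (63 and 24) or with unequal lengths (33) were left out. Symbols came from RefSeq on GRCm38.p6 (29352 accessions) and GENCODE vM21 (174), and 394 had none. Of the genes on the lists, Ffar1 and Cd68 were not analysed here, as they had no line in both tables.

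TMM factors were computed with edgeR 4.0.16 in R 4.3.3 on genes whose mean CPM reached 1, giving totals of 152834157 and 50769794. Ratios carry exact 95% Clopper-Pearson intervals of the reads and levels exact Poisson intervals, with 3 reads as the limit for 0. They compare 2 libraries and cover counting error only, since PCR reads carry no molecular identifiers. There is no p-value. The comparison was tested on simulated data. Alternatives were other scalings, no expression minimum, the longest transcript and missing lines read as 0. The members and lists were chosen with earlier results of these data known. Named genes were all antigens, their nearest neighbours, and per list the 2 with the most reads and the 2 with the largest ratio. Others are said to be picked afterwards. Some genes that this rule names are not reported here.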

Additional observations from a re-analysis of the deposited data

How the results depend on the processing

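With unscaled read totals 1 islet antigen was called lower instead of 2, and with the RPKM read totals 0 were, as Ptprn2 and then also Chga moved within 2-fold. With the RPKM read totals 7232 genes in all were higher and 471 lower, against 2530 and 1907, and without an expression minimum 3822 were lower. Median of ratios size factors, the longest transcript, missing lines read as 0 and no minimum changed the call of 0 of the 10 antigens, unscaled totals that of 1 and RPKM totals that of 3. Ins2 (log2 ratio 2.48 to 3.48) and Gad1 (2.42 to 3.42) were called higher under each of these 6 alternatives. These could not undo a higher call, because the other scalings moved the ratios up. No minimum, the longest transcript and missing lines read as 0 left the antigen read counts as they were. Depth limits Ins1, Gad2, Slc30a8 and G6pc2, whose ratios rest on 38 to 61 reads in MHC-II low mTEC. The Ins2 ratio rests on a similar count there, 62 reads, and its interval was 4.31 to 7.33. No paired analysis was possible because each group has 1 library.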
